A study of Mus musculus with 11 samples.

Results

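The comparison described here is the difference between the genotypes in their response to IL-4c, computed for each gene as the change from PBS to IL-4c in RαTd/Td mice minus the change in Rα+/+ mice. It used all 11 mice and took in the 445 of 754 genes on the panel whose mean over these mice was above 30 normalized counts; the other 309 genes were at the lowest listed value in every mouse. The same number can be read as the genotype difference in IL-4c-treated mice minus that in PBS-treated mice, so each gene was also sorted by which of these treatments held the difference.

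The cells were CD11b+F4/80+ macrophages sorted from the peritoneal cavity of female C57BI/6 mice aged 6 to 8 weeks, with 1 mouse per measurement, and the experiment was performed once. Rα+/+ mice carry the normal Retnla gene, which encodes the secreted protein RELMα. In RαTd/Td mice both copies are replaced by the TdTomato reporter after a cross to a universal deleter line with pCMV-driven Cre, so that every cell of the animal lacks the gene, not the macrophages alone. Injections into the peritoneum on days 0 and 2 held either PBS or IL-4c, a complex of IL-4 with an antibody that prolongs its action, and cells were taken on day 4. PBS was given to 2 Rα+/+ mice (mice 1 and 2) and 2 RαTd/Td mice (mice 3 and 4). The IL-4c groups analysed hold 3 Rα+/+ mice (mice 5, 6 and 7) and 4 RαTd/Td mice (mice 9, 10, 11 and 12). The study had taken 1 more Rα+/+ mouse out of this arm. It had clustered with the PBS group. The study also reported less RELMα in its peritoneal fluid and fewer peritoneal cells, with poor IL-4c delivery as the likely reason. That mouse is not analysed here, so the Rα+/+ responses and their spread are those of the mice kept.

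IL-4 binds the IL-4 receptor α chain on macrophages and activates the transcription factor STAT6, which switches on a set of genes known as alternative activation, among them Retnla and Chil3. It also makes resident peritoneal macrophages divide. Immediate early genes, such as Jun and Atf3, are a separate class that is transcribed within minutes of a stimulus without new protein synthesis, and many of their products pair up as AP-1 or CREB/ATF transcription factors.

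Values are normalized counts from the Nanostring Myeloid Innate Immunity v2 panel, in which a value of 30 is read as a floor that stands for any lower value. Depth, the summed counts above the floor, was 297252 in mouse 1, 551544 in mouse 2, 268857 in mouse 3 and 280396 in mouse 4. After IL-4c it lay between 487817 and 574502 (median 505632) in Rα+/+ mice and between 447263 and 523937 (median 494452) in RαTd/Td mice. The measurable limit of each mouse was inferred from the values, since no rule is stated with the data: it was taken as 30 counts times the scaling factor of the mouse, or as 30 where that was higher. This gave 48.2 in mouse 1, 30 in mouse 2, 56.1 in mouse 3 and 56.3 in mouse 4, and between 30 and 36.4 in the mice given IL-4c, and in 8 of the 11 mice the lowest listed value above 30 was at this limit. Every "at least" and every limit given below rests on this rule. The sorted cells carried the markers of large peritoneal macrophages: all 8 of these genes on the panel, Itgam, Adgre1, Timd4 and Gata6 among them, were above the floor, and their sum lay between 22346 in mouse 12 and 29453 in mouse 4.

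IL-4c changed many genes in each genotype. Of the 445 genes, 206 (46.3%) changed in Rα+/+ mice and 231 (51.9%) changed in RαTd/Td mice at an adjusted p of 0.05 or less from limma, which is what "called" means throughout. Called in both were 159 genes, which is 77.2% of the first count and 68.8% of the second, and 158 of them had the same direction. The difference between these responses was called for 9 genes (2.02%). It was higher in RαTd/Td mice for 3 of them (0.674%), Fscn1, Eif2b4 and Fpr1, and lower for 6 (1.35%), Retnla, Dusp2, Atf3, Cxcr4, Jun and Batf. An unadjusted p of 0.05 or less was reached by 69 genes (15.5%), 31 of them higher (6.97%) and 38 lower (8.54%) in RαTd/Td mice. The count of 9 was 34 when mouse 1 was left out, 3 when it was mouse 4 or mouse 6, and 5 when it was mouse 5 or mouse 7. Leaving out mouse 1 turned the 3 higher genes into 13 and the 6 lower ones into 21. Higher genes numbered 1 without mouse 4, 5 or 6, and lower ones numbered 2 in the absence of mouse 4 or 6 and 3 in that of mouse 7.

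The difference in response is measured less exactly than either genotype difference that makes it up. Its median standard error was 0.26 on the log2 scale, against 0.21 for the genotype difference after PBS and 0.16 for that after IL-4c. For 317 genes (71.2%) the value lay within 0.5 of 0, and for 250 genes (56.2%) the whole 95% interval lay within 1 of 0. The median over all 445 genes was -0.00, with 222 genes above 0 and 223 below.

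**Figure D1:**
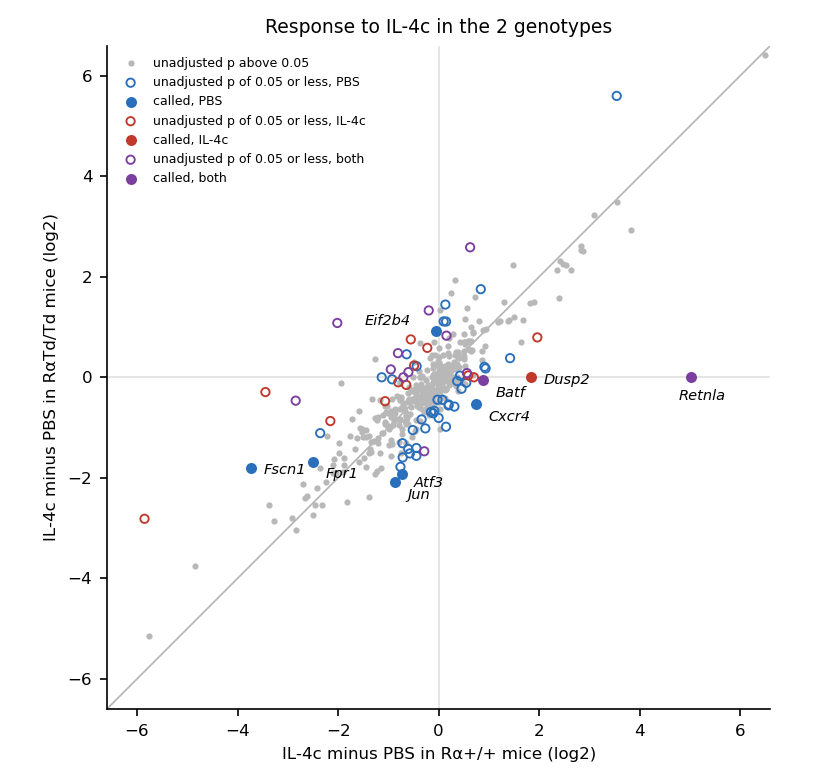
Each point is a gene, placed by its log2 change from PBS to IL-4c in Rα+/+ mice (horizontal) and in RαTd/Td mice (vertical), with the line of equal responses drawn. Filled points are the 9 called genes, of which Retnla lies farthest from the line, with responses of 5.03 and 0.00; Chil3 and Chil4 lie beyond the axes.

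Sorting by treatment put most of the called differences down to the mice given PBS. A gene was put down to PBS, or to IL-4c, where the genotype difference after that treatment made up at least 2/3 of the summed size of both genotype differences, and to both treatments otherwise, which is a description with no test. By this measure 6 of the 9 called genes were put down to PBS (Fscn1, Atf3, Cxcr4, Eif2b4, Jun and Fpr1). Another 1 was put down to IL-4c (Dusp2) and 2 to both (Retnla and Batf). The placing of Eif2b4 rests on the floor. Its genotype difference after PBS was 0 with every floor raised to the highest limit of any mouse. In that setting Fscn1 and Fpr1 had a genotype difference of 0 after IL-4c, so the floor left PBS as their only possible place. Their genotype differences after PBS stayed called. The count for PBS was 31 when mouse 1 was left out, 1 when it was mouse 4 or 6, and 3 when it was mouse 5 or 7. The count for IL-4c was 2 without mouse 10 or 11, and the count for both was 4 without mouse 9 and 1 without mouse 2, 3, 4, 5, 6, 7 or 10.

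Among the 69 genes with an unadjusted p of 0.05 or less, 43 (62.3%) were put down to PBS, 13 (18.8%) to IL-4c and 13 (18.8%) to both. Over all 445 tested genes the shares were 35.3% (157 genes), 27.9% (124 genes) and 36.9% (164 genes). The genotype difference after PBS rests on 2 mice against 2 and has the larger error, which by itself makes it the larger of the pair more often; its part in these shares was not tested. A group wholly at the floor was present in 5 of the 9 called genes, with all 3 higher ones among them. It was present in 18 of the 69 (26.1%) and in 115 of all 445 (25.8%). Mice 1, 3 and 4 were shallower than mouse 2 and had the higher floors, and the part of this in genes near the floor was not tested. Of the 43 genes put down to PBS, 30 were lower and 13 higher in RαTd/Td mice, and of the 13 put down to IL-4c, 9 were higher and 4 lower. The split was much the same over all tested genes, with 105 lower and 52 higher among those put down to PBS and 87 higher and 37 lower among those put down to IL-4c, so it is not particular to the 69. Without mouse 1 the number put down to PBS was 77 and the number put down to IL-4c 6, which was also 6 without mouse 3; the number put down to both was 7 without mouse 2, 5 without mouse 4 and 21 without mouse 9.

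In the 30 genes lower in RαTd/Td mice and put down to PBS, the median genotype difference was 0.81 after PBS but 0.01 after IL-4c. The median response was -0.05 in Rα+/+ mice and -0.70 in RαTd/Td mice. In the 13 higher genes put down to PBS these genotype medians were -0.87 and 0.16. In the 9 higher genes put down to IL-4c they were -0.26 and 0.72, with median responses of -0.80 in Rα+/+ mice and -0.15 in RαTd/Td mice. Genes entered these classes by the same genotype differences and by the sign of the difference in response, so the medians give sizes and are no further evidence of the pattern.

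**Figure D2:**
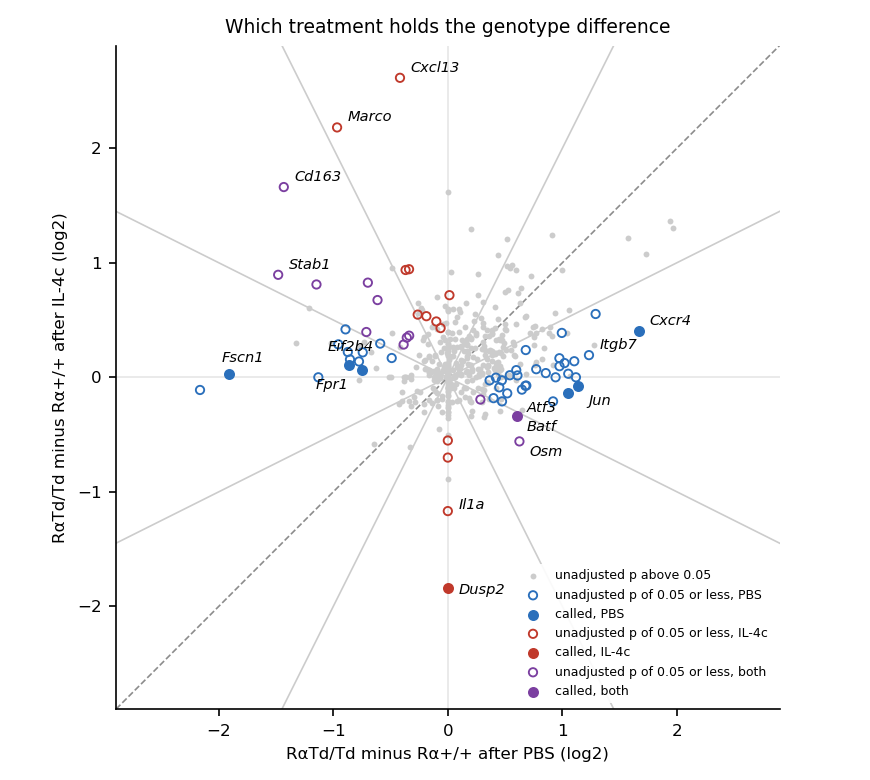
Each point is a gene, placed by its genotype difference (RαTd/Td minus Rα+/+, log2) after PBS (horizontal) and after IL-4c (vertical); solid lines bound the sectors of the 2/3 rule and the dashed line marks no difference in response. The 6 called genes put down to PBS lie along the horizontal axis and Dusp2, at -1.84, lies on the vertical axis; Retnla lies beyond the axes.

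By calls of the simple comparisons, the genotypes differed in 43 genes after PBS (9.66%), 36 higher (8.09%) and 7 lower (1.57%) in RαTd/Td mice, and in 12 genes after IL-4c (2.7%), 7 higher (1.57%) and 5 lower (1.12%). Sorted in this way, 7 of the 9 called genes were called after PBS alone, Dusp2 after IL-4c alone and Retnla after both. The 7 include Eif2b4, which was not shown to differ after PBS. Its difference there was 0 and not called with every floor raised to the highest limit of any mouse. Of the 69 genes, 26 were called after PBS alone, 6 after IL-4c alone, 1 after both and 36 after neither. Leaving out mouse 1 gave 73 calls after PBS in place of 43, mouse 2 gave 19, mouse 3 gave 25, mouse 4 gave 3, mouse 5 gave 19, mouse 7 gave 28 and mouse 10 gave 21. The 12 calls after IL-4c became 6 when mouse 1, 2, 3, 4 or 11 was left out, 5 when it was mouse 5 or 12, 7 when it was mouse 6 or 7, and 27 when it was mouse 9.

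Retnla, the gene that the allele removes, had the lowest value of the 445. It was at 4631 and 4141 normalized counts in PBS-treated Rα+/+ mice and at 115675, 147349 and 171588 in the Rα+/+ mice given IL-4c. All 6 RαTd/Td mice were at the floor, so there is no overlap between the genotypes in either treatment. The Rα+/+ response was a 32.7-fold rise (adjusted p = 9.07e-09 from limma), and the difference in response was -5.03 (SE 0.21, adjusted p = 3.66e-07). This call was fixed in advance by the allele, since RαTd/Td mice have no Retnla transcript to measure. By qPCR the study reported that IL-4c raised TdTomato mRNA in peritoneal cells of RαTd/Td mice. Rα+/+ mice were at least 77.9-fold above RαTd/Td mice after PBS and at least 4483-fold above them after IL-4c. Here and below, "at least" means that a group at the floor was set to the lowest values its mice could have shown, averaged as a geometric mean; the fitted log2 values of such genes move with the floor.

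Jun and Atf3 encode transcription factors of the AP-1 and ATF families and were called immediate early genes in which the genotypes differed after PBS. In Jun the PBS-treated Rα+/+ mice were at 266.9 and 243.0 and the PBS-treated RαTd/Td mice at 532.6 and 595.3, whereas after IL-4c the values were 138.5, 135.9 and 143.8 in Rα+/+ mice and 170.4, 127.1, 124.0 and 113.6 in RαTd/Td mice. The genotypes do not overlap after PBS and overlap after IL-4c. In Atf3 the PBS-treated mice were at 424.5 and 309.0 in Rα+/+ and 726.9 and 777.5 in RαTd/Td, and after IL-4c at 209.5, 219.6 and 221.6 in Rα+/+ and 179.0, 208.8, 201.6 and 200.8 in RαTd/Td. In Atf3, too, both genotypes were lower after IL-4c than after PBS and RαTd/Td mice were the higher group after PBS, but after IL-4c the 4 RαTd/Td mice all lay just below the 3 Rα+/+ mice.

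Jun fell in both genotypes, with a log2 change of -0.86 in Rα+/+ mice (adjusted p = 0.00194 from limma) and -2.08 in RαTd/Td mice (adjusted p = 4.98e-06). The difference in response was -1.22 (SE 0.22, adjusted p = 0.022), with a genotype difference of 1.14 after PBS (adjusted p = 0.00565) and -0.08 after IL-4c (adjusted p = 0.773). Atf3 likewise fell by 0.74 on the log2 scale in Rα+/+ mice and by 1.93 in RαTd/Td mice. Its difference in response was -1.19 (SE 0.19, adjusted p = 0.0154), with 1.05 after PBS (adjusted p = 0.0056) and -0.14 after IL-4c (adjusted p = 0.542). The genotype difference after PBS was no longer called without mouse 4 in either gene (1.06 for Jun and 1.00 for Atf3, adjusted p = 0.0681 for both). The Rα+/+ falls were smaller with each mouse centred on its median gene (-0.57 for Jun and -0.44 for Atf3) and, for Atf3, after quantile normalization (-0.46), and still called. The call for Atf3 was lost without mouse 4 (-1.14, adjusted p = 0.0919) or mouse 6 (-1.18, adjusted p = 0.0521). The call for Jun was lost without mouse 2, 4, 5, 6, 7 or 10, with values between -1.24 and -1.14 and adjusted p between 0.052 and 0.124, and with each mouse centred on its median gene (-1.26, adjusted p = 0.0623).

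The promoters of these genes were searched for a pair of motifs that AP-1 and CREB/ATF proteins are known to bind, in the stretch from 250 bases before to 50 bases after each start listed by RefSeq (build GRCm38.p6). The letters of the AP-1 site (TGACTCA, both strands) were in 5.2% of 32851 promoters and in 0 of those of the 9 called genes. The letters of the CRE (TGACGTCA, the same on both strands) were in 1.79% of all promoters. They were in 3.14% of those of the 338 tested genes that matched the table, and among the called genes in Fscn1. Of the 61 promoters of genes with an unadjusted p of 0.05 or less, 4.92% held them. These were promoters of Fscn1, Mif and the immediate early gene Btg2. With at most 1 mismatch, a search chosen after the values were seen, the CRE was in 12.5% of all promoters, in 15.2% of those of the tested genes, in 8.2% of those of the genes with an unadjusted p of 0.05 or less (5 of 61 promoters), in 3 of the 9 called genes (Atf3, Fscn1 and Jun) and in 4 of the 10 immediate early genes that matched (Atf3, Btg2, Jun and Klf4). The sequences are shown because these genes were called, or belong to the same list, and differ between the genotypes after PBS; capitals mark the motif. They lie at chr4:95052244-95052283 (minus strand, 45 bases before the start) for Jun, chr1:191183334-191183359 (minus strand, 10 bases before) for Atf3, chr1:134079298-134079337 (minus strand, 166 bases before) for Btg2 and chr5:142960294-142960333 (plus strand, 45 bases before) for Fscn1. The Jun and Atf3 stretches have 1 mismatch to the motif. A match is a description of letters, and binding was not measured.
Jun: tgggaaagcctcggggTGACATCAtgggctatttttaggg
Atf3: gaagctattaatagcaTTACGTCAgc
Btg2: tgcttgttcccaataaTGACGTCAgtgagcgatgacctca
Fscn1: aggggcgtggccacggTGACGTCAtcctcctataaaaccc

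The list of immediate early and AP-1 genes was described by counts and medians, with no test of the list. It was chosen with earlier results of these data known, so its counts and medians are no independent evidence. Of 27 listed genes, 15 are on the panel and 11 were tested; 3 were called lower in RαTd/Td mice (Jun, Atf3 and Batf) and 0 higher, and Btg2 and Fosb joined them, also lower, at an unadjusted p of 0.05 or less, which makes 5. Over all tested genes 1.35% were called lower, 8.54% were lower by unadjusted p and 35.3% were put down to PBS. The median difference in response was -0.93, or -0.77 with groups at the floor set to their limits, against -0.00 and -0.14 over all tested genes. Values were below 0 for 9 of the 11, and for 10 after quantile normalization. The median genotype difference was 0.64 after PBS and -0.03 after IL-4c, against 0.10 and 0.12 over all tested genes, and 9 of the 11 genes were put down to PBS. The median lay at -0.97 with each mouse centred on its median gene and at -0.68 after quantile normalization. The 3 calls became 0 when mouse 4 or 6 was left out, 1 when it was mouse 2, 5, 7 or 10, and 2 when it was mouse 3.

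Btg2 encodes an antiproliferative protein. It was at 636.7 and 504.7 in PBS-treated Rα+/+ mice and 1140 and 1215 in PBS-treated RαTd/Td mice, and after IL-4c at 289.7, 331.2 and 389.8 in Rα+/+ mice and 362.8, 401.0, 387.0 and 242.1 in RαTd/Td mice. As in Jun, the genotypes were apart after PBS (1.05, adjusted p = 0.0339 from limma) and overlapped after IL-4c (0.03, adjusted p = 0.956). The call after PBS was lost without mouse 2, 3, 4, 5, 6 or 10 (0.89 to 1.10, adjusted p between 0.0513 and 0.209), with no filter (adjusted p = 0.0927), with no moderation (adjusted p = 0.0676), with centring (0.91, adjusted p = 0.112) and after quantile normalization (0.91, adjusted p = 0.121). Its difference in response was -1.02 and not called (adjusted p = 0.129). Fosb, an AP-1 subunit, had -0.96 (adjusted p = 0.216), which was -0.52 without mouse 1, -1.41 without mouse 2 and, with a single floor of 56.3, -0.66 and called (adjusted p = 0.00247). Klf4, a zinc finger transcription factor, had -0.93 (adjusted p = 0.381). Myc, which drives growth and division, had 0.15, with an interval from -0.45 to 0.75, and a value of -0.04 without mouse 3.

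**Figure D3:**
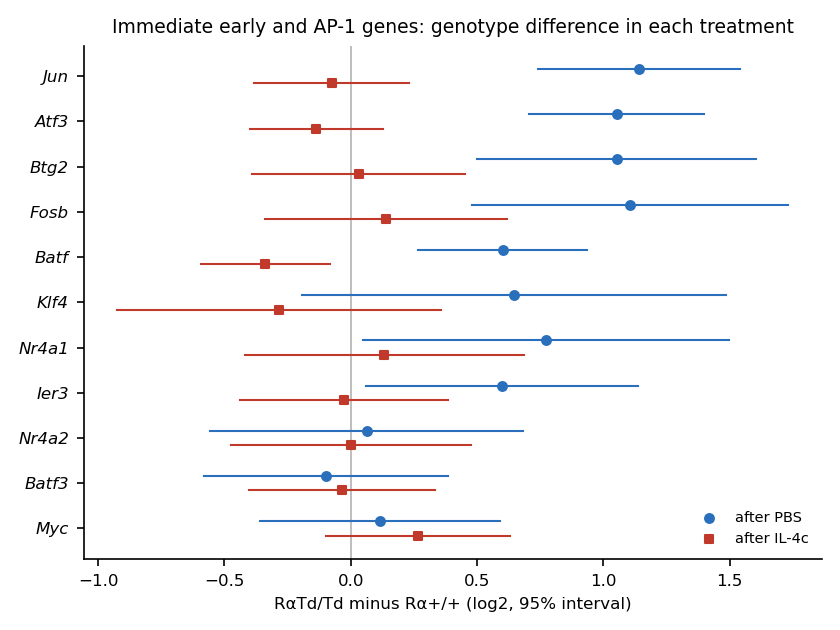
Points are the fitted genotype differences (RαTd/Td minus Rα+/+, log2, horizontal axis) of the 11 tested immediate early and AP-1 genes after PBS (circles, 2 against 2 mice) and after IL-4c (squares, 3 against 4 mice), with 95% intervals as bars. Jun lies at 1.14 after PBS and -0.08 after IL-4c and Atf3 at 1.05 and -0.14, whereas Myc, Batf3 and Nr4a2 lie near 0 after PBS.

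Cxcr4 is the receptor for the chemokine CXCL12. It was at 30 and 36.8 in PBS-treated Rα+/+ mice and 102.8 and 112.7 in PBS-treated RαTd/Td mice, and after IL-4c at 48.1, 64.3 and 56.8 in Rα+/+ mice and 72.4, 74.4, 65.8 and 86.1 in RαTd/Td mice. RαTd/Td mice were higher than Rα+/+ mice in both treatments without overlap, and the gap was wider after PBS. In Rα+/+ mice Cxcr4 rose by 0.74 on the log2 scale (adjusted p = 0.0043 from limma) and in RαTd/Td mice it fell by 0.53 (adjusted p = 0.0157). The difference in response was -1.27 (SE 0.22, adjusted p = 0.0193), with a genotype difference of 1.67 after PBS (adjusted p = 0.000579) and 0.40 after IL-4c (adjusted p = 0.131). Mouse 1, at the floor in this gene, could not have shown a value below 48.2; with the floor of every mouse raised to 56.3 the Rα+/+ change was 0.07 (adjusted p = 0.752), the genotype difference after PBS 0.92 and still called (adjusted p = 0.00281), and the difference in response -0.60 (adjusted p = 0.0832). The fall in RαTd/Td mice was not called without mouse 4 (-0.46, adjusted p = 0.112), with centring (-0.27, adjusted p = 0.187) or after quantile normalization (-0.20, adjusted p = 0.213). The call for the difference in response was also lost without mouse 4 (-1.20, adjusted p = 0.0982), mouse 6 (-1.17, adjusted p = 0.0521) or mouse 7 (-1.26, adjusted p = 0.065).

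Fscn1, which encodes the actin-bundling protein fascin, and Fpr1, a receptor for bacterial formyl peptides, were lower in RαTd/Td mice after PBS and near the floor in both genotypes after IL-4c. Fscn1 was at 474.3 and 358.5 in PBS-treated Rα+/+ mice and 99.0 and 120.2 in PBS-treated RαTd/Td mice, and after IL-4c it was at the floor in all mice but mouse 11, at 32.3. Fpr1 was at 175.3 and 171.0 in Rα+/+ mice and 114.0 and 92.0 in RαTd/Td mice after PBS, and after IL-4c at the floor in all mice but mouse 11, at 35.6. The genotypes are apart after PBS in both genes, and after IL-4c the floor leaves no room to see a difference.

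In Rα+/+ mice Fscn1 fell at least 11.7-fold (adjusted p = 2.71e-08 from limma) and had a fitted log2 change of -1.80 in RαTd/Td mice (adjusted p = 4.02e-06). Its difference in response was 1.93 (SE 0.19, adjusted p = 0.00028) and its genotype difference after PBS -1.91 (adjusted p = 6.16e-05); it was called without each of the 11 mice. Fpr1 fell at least 4.92-fold in Rα+/+ mice and had a fitted log2 change of -1.68 in RαTd/Td mice. Its difference in response was 0.81 (SE 0.17, adjusted p = 0.044). That call was lost without mouse 2, 4, 5, 6, 7, 9 or 10, with values between 0.66 and 0.83 and adjusted p between 0.052 and 0.169. It was also lost with each mouse centred on its median gene (0.77, adjusted p = 0.105) and with robust moderation along a mean-variance trend (adjusted p = 0.0596).

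Eif2b4 encodes a subunit of eIF2B, the factor that recharges eIF2 with GTP in translation. It was at 56.3 and 54.7 in PBS-treated Rα+/+ mice and at the floor in both PBS-treated RαTd/Td mice, and after IL-4c at 52.7, 48.5 and 59.2 in Rα+/+ mice and 53.3, 57.9, 53.9 and 65.4 in RαTd/Td mice. The lowest measurable values of the PBS-treated RαTd/Td mice were 56.1 and 56.3, which is where the other mice lie, so their levels cannot be told apart from those of the other groups. The fitted difference in response was 0.97 (adjusted p = 0.0193 from limma), and with the floor of every mouse raised to 56.3 it was 0.04 (adjusted p = 0.864); quantile normalization gave 0.62 (adjusted p = 0.0339). The call was also lost without mouse 3, 4, 5 or 6, with values between 0.91 and 0.97 and adjusted p between 0.0506 and 0.0982.

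**Figure D4:**
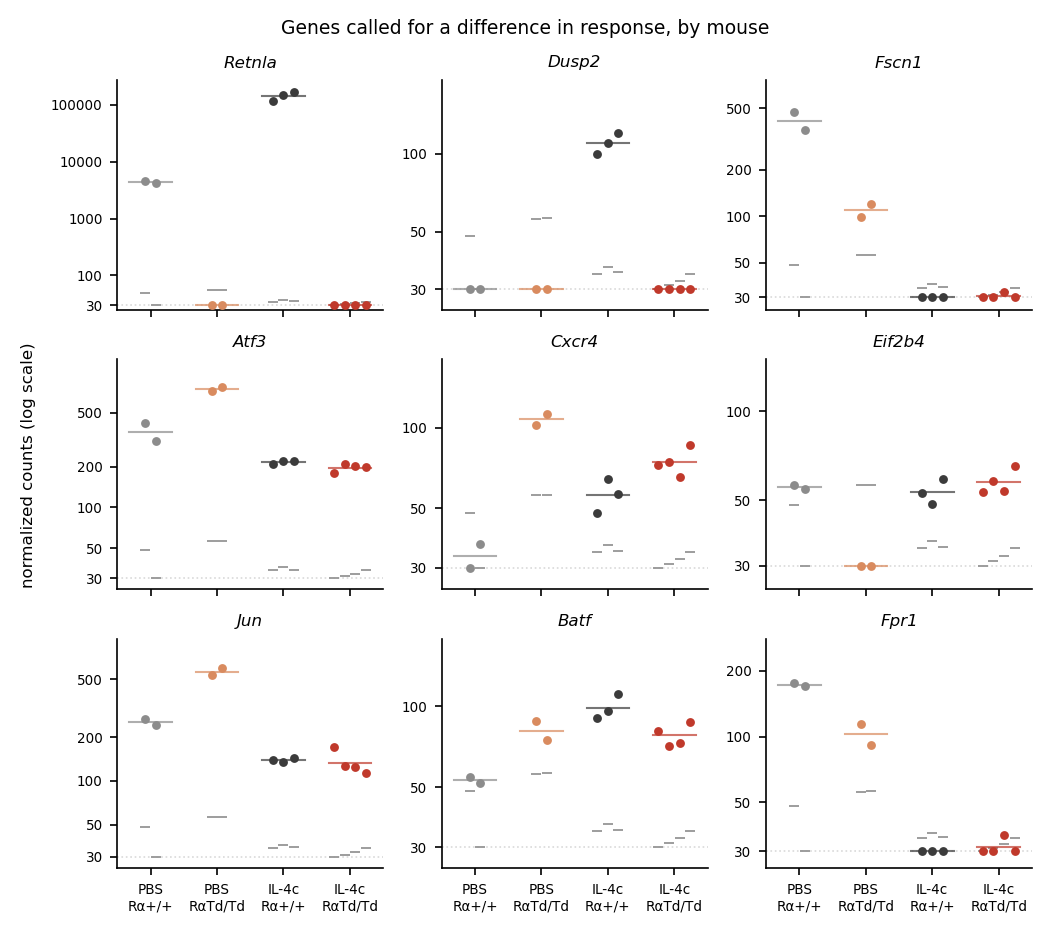
Each panel shows a called gene in normalized counts (vertical, log scale) in each mouse of the 4 groups, with a bar at the geometric mean and short dashes at the lowest value that could be measured in each mouse. In Jun, Atf3 and Cxcr4 the PBS-treated RαTd/Td mice are the highest group; in Eif2b4 they are at the floor, below dashes at 56.1 and 56.3.

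Other genes put down to PBS fell short of a call. Itgb7, the integrin β7 chain, was at 480.8 and 383.2 in PBS-treated Rα+/+ mice and 926.9 and 1102 in PBS-treated RαTd/Td mice, and between 975.5 and 1500 in all 7 mice given IL-4c. It rose in Rα+/+ mice (1.42, adjusted p = 0.000176 from limma), and the difference in response was -1.04 (adjusted p = 0.0569, and 0.0387 without mouse 1). Id1, an inhibitor of helix-loop-helix transcription factors, was at 49.8 and 42.8 in Rα+/+ mice and 72.9 and 97.7 in RαTd/Td mice after PBS, and at the floor after IL-4c in all mice but mouse 9, at 33.3 (-0.82, adjusted p = 0.0569, with 0.0304 without mouse 1 and 0.0226 without mouse 3). Mmp9, a gelatinase, was at 51.5 and 87.0 in PBS-treated Rα+/+ mice and at the floor in the other 9 (1.13, adjusted p = 0.0503); with a single floor of 56.3 its value was 0.31, since the PBS-treated RαTd/Td mice could not have shown values below 56.1. Mmp9 was called with weights (adjusted p = 0.0153), with robust moderation along a trend (adjusted p = 0.0479) and without mouse 1 (1.51) or mouse 2 (0.76), where no group was left with any spread.

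Dusp2, a nuclear phosphatase that inactivates MAP kinases, was the called gene put down to IL-4c. It was at 99.6, 110.4 and 120.7 in the Rα+/+ mice given IL-4c and at the floor in the other 8 mice. The groups do not overlap, and the RαTd/Td mice given IL-4c could have shown values from 30 to 34.4 upwards. It rose at least 2.89-fold in Rα+/+ mice (adjusted p = 7.41e-07 from limma), and after IL-4c these mice were at least 3.45-fold above RαTd/Td mice (adjusted p = 5.69e-07). The difference in response was -1.84 (SE 0.14, adjusted p = 5.53e-05), called without each of the 11 mice and, at -0.95, with a single floor of 56.3 (adjusted p = 0.000884).

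Another 3 genes had the same shape, with both PBS groups at the floor and a higher level in Rα+/+ than in RαTd/Td mice after IL-4c. Il1a, the cytokine IL-1α, was at 113.3, 140.7 and 107.9 in Rα+/+ mice and 40.0, 68.2, 56.0 and 50.5 in RαTd/Td mice. The genotypes do not overlap, with a genotype difference after IL-4c of -1.17 (adjusted p = 0.00594 from limma) and a difference in response of the same size that was not called (adjusted p = 0.0569); it was called with a single floor (-1.01, adjusted p = 0.0172), after quantile normalization (-1.28, adjusted p = 0.0452) and without mouse 10 (-1.29, adjusted p = 0.0441). Acot11, an acyl-CoA thioesterase, was at 44.6, 58.2 and 46.4 in Rα+/+ mice and at the floor in RαTd/Td mice (-0.70, adjusted p = 0.0569), and Nfatc2, a calcineurin-dependent transcription factor, was at 44.6, 51.0 and 41.8 against 33.3 and 3 mice at the floor (-0.55, adjusted p = 0.1). With a single floor of 56.3 these values were -0.02 for Acot11 and 0.00 for Nfatc2, whereas both were called after quantile normalization (-0.97, adjusted p = 0.00382, and -0.81, adjusted p = 0.0132) and Acot11 without moderation (adjusted p = 0.05). Both PBS groups were at the floor in 4 of the 69 genes and in 47 of all 445, and genes of this kind can only be put down to IL-4c. Both IL-4c groups were at the floor in 3 of the 69, Mmp9 among them, and in 18 of all 445, and those can only be put down to PBS.

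The 9 genes that were higher in RαTd/Td mice and put down to IL-4c include the scavenger receptor gene Marco, the chemokine gene Cxcl13, which attracts B cells, and Anxa1, whose product annexin A1 dampens inflammation. Marco was at 2766 and 3097 in Rα+/+ mice and 1687 and 1326 in RαTd/Td mice after PBS, and after IL-4c at 210.7, 266.9 and 341.1 in Rα+/+ mice and 462.7, 640.7, 2398 and 3111 in RαTd/Td mice. Cxcl13 was at 2151 and 1486 in Rα+/+ mice and 1202 and 1489 in RαTd/Td mice after PBS, and after IL-4c at the floor in all 3 Rα+/+ mice and at 87.6, 92.0, 484.0 and 327.1 in RαTd/Td mice. In both genes the RαTd/Td mice given IL-4c were above all Rα+/+ mice given IL-4c, and mice 11 and 12 were far above mice 9 and 10.

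Marco fell in Rα+/+ mice (-3.45, adjusted p = 0.00382 from limma), with a value of -0.29 in RαTd/Td mice (adjusted p = 0.752), and its difference in response of 3.15 had a standard error of 1.00 and was not called (adjusted p = 0.145). Cxcl13 fell at least 50.8-fold in Rα+/+ mice and had a log2 change of -2.81 in RαTd/Td mice (adjusted p = 0.0044). RαTd/Td mice given IL-4c were at least 5.37-fold above Rα+/+ mice (adjusted p = 0.0421), and its difference in response was 3.04 (SE 0.91, adjusted p = 0.129). The call after IL-4c was lost without any mouse but 9 or 10 (adjusted p between 0.0842 and 0.193), and with no filter, no moderation, a pseudocount of 10 or a single floor (1.73, adjusted p = 0.184).

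Anxa1 was at 500.1 and 514.4 in Rα+/+ mice and 426.1 and 418.8 in RαTd/Td mice after PBS, and after IL-4c at 461.4, 442.8 and 399.1 in Rα+/+ mice and 585.5, 528.1, 604.7 and 866.4 in RαTd/Td mice. The order of the genotypes is turned round by the treatment, without overlap on either side. The difference in response was 0.81 (adjusted p = 0.145 from limma), and without mouse 12, the highest, it was 0.66 and called (adjusted p = 0.0401). Rab20, a small GTPase of phagosome maturation, was at 52.7, 66.7 and 68.5 in Rα+/+ mice and 94.3, 97.1, 127.2 and 96.4 in RαTd/Td mice after IL-4c. It fell in Rα+/+ mice (-0.80). That fall was not called with centring (-0.51, adjusted p = 0.053), after quantile normalization (-0.41, adjusted p = 0.0742) or without mouse 1 (-0.61). The genotype difference was 0.01 after PBS and 0.72 after IL-4c (adjusted p = 0.0421), and the difference in response was 0.70 (adjusted p = 0.212). The call after IL-4c was lost without any mouse but 9 (0.60 to 0.79, adjusted p between 0.0635 and 0.193) and under 6 other settings. Cysltr1, a receptor for cysteinyl leukotrienes, had 0.49 (adjusted p = 0.216), and Nfkbia, the inhibitor IκBα, 0.59 (adjusted p = 0.22).

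**Figure D5:**
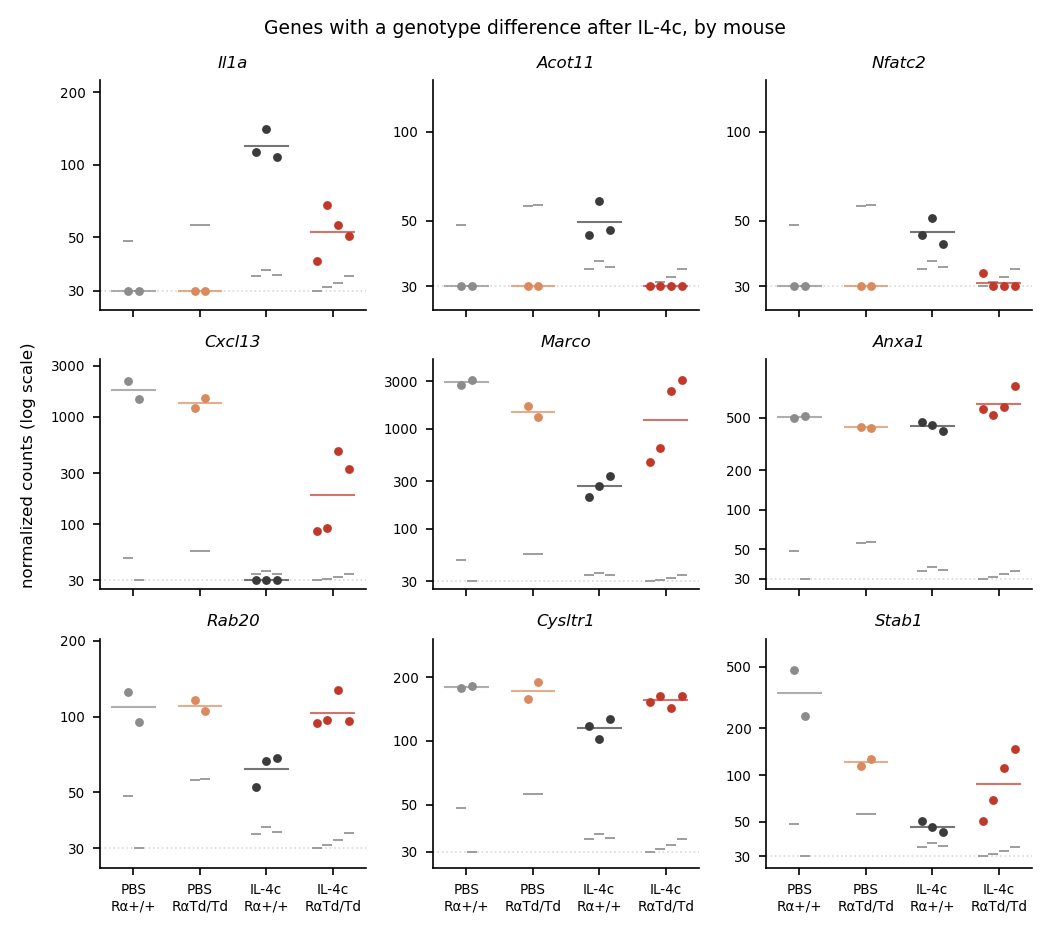
Each panel shows a gene that was not called, in normalized counts (vertical, log scale) in each mouse of the 4 groups, with a bar at the geometric mean and short dashes at the lowest value that could be measured in each mouse. After IL-4c, Il1a is lower in all 4 RαTd/Td mice (40.0 to 68.2) than in the 3 Rα+/+ mice (107.9 to 140.7), and Marco is spread from 462.7 to 3111 in RαTd/Td mice.

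Of the 18 genes that were higher in RαTd/Td mice at an unadjusted p of 0.05 or less and not put down to PBS, mouse 12 had the highest value among the RαTd/Td mice given IL-4c in 15 (83.3%) and mouse 11 in the other 3. Across the 445 tested genes mouse 12 was the highest of these 4 mice in 39.8%, but those genes were not chosen for high values in RαTd/Td mice, as the 18 were, so the shares are not like for like. Without mouse 12 the median of the 18 was 0.92 in place of 1.20. Markers of other cells were also highest in this mouse among those given IL-4c. Ms4a1, the 1 B cell gene on the panel of 8 listed, was at 104.5 and 226.5 in PBS-treated Rα+/+ mice, 192.5 and 242.3 in PBS-treated RαTd/Td mice, 63.1 in mouse 12 and at the floor in the other mice given IL-4c. The summed neutrophil and monocyte markers (9 on the panel, of which 5 were above the floor, Ly6g, Mmp8, Camp and Cxcr2 at the floor) were at 1220 and 1249 in PBS-treated Rα+/+ mice and 1538 and 1373 in PBS-treated RαTd/Td mice. After IL-4c they were at 424.8, 491.4 and 332.9 in Rα+/+ mice and 520.8, 464.0, 896.8 and 1372 in RαTd/Td mice. The summed markers of small peritoneal macrophages and dendritic cells (2 of 4 above the floor, Ccr2 the most abundant, Itgax and Flt3 at the floor) reached 620.8 in mouse 12 and lay between 199.5 and 327.6 in the other mice given IL-4c and between 318.4 and 453.7 after PBS. That sum is Ccr2 plus Irf4; Ccr2 is also counted among the neutrophil and monocyte markers and STAT6 signalling induces Irf4, so the sums are not separate evidence for other cells. Their part in the genotype differences was not tested, and in sorted bulk cells a change in the mix of cells and a change in RNA per cell cannot be told apart. The T cell gene Cd28, the natural killer cell gene Gzma and all 5 eosinophil genes on the panel were at the floor in every mouse. Of 6 mast cell genes, 2 were above the floor, Hdc the most abundant, with sums between 108.7 and 319.3.

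Batf, an AP-1 family factor that lacks a transactivation domain, was put down to both treatments. It was at 54.7 and 51.7 in PBS-treated Rα+/+ mice and 87.8 and 75.1 in PBS-treated RαTd/Td mice, and after IL-4c at 90.5, 95.8 and 111.4 in Rα+/+ mice and 80.9, 71.3, 73.3 and 87.2 in RαTd/Td mice. RαTd/Td mice were the higher genotype after PBS and the lower after IL-4c, without overlap in either. Batf rose in Rα+/+ mice (0.88, adjusted p = 0.000632 from limma) and had a change of -0.06 in RαTd/Td mice (adjusted p = 0.74). Its difference in response was -0.94 (SE 0.19, adjusted p = 0.0345), from 0.60 after PBS (adjusted p = 0.0393) and -0.34 after IL-4c (adjusted p = 0.131). The call after PBS was lost without mouse 2, 3, 4, 5, 6 or 10 (0.49 to 0.71, adjusted p between 0.0504 and 0.187) and under 5 other settings. The call for the difference in response was lost without mouse 2, 3, 4, 5, 6, 7 or 10, with values between -1.05 and -0.83 and adjusted p between 0.052 and 0.0949. It was also lost after quantile normalization (-0.83, adjusted p = 0.0623), with robust moderation along a mean-variance trend (adjusted p = 0.0559), over genes above 30 in every mouse (adjusted p = 0.0663) and over genes with no group at the floor (adjusted p = 0.064).

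Stab1, the scavenger receptor stabilin-1, was the uncalled gene of this class with the smallest p. It was at 474.3 and 242.2 in Rα+/+ mice and 114.0 and 127.7 in RαTd/Td mice after PBS, and after IL-4c at 50.4, 46.1 and 42.9 in Rα+/+ mice and 50.5, 69.2, 111.0 and 148.0 in RαTd/Td mice. It fell in Rα+/+ mice (-2.84, adjusted p = 0.0005 from limma), with -0.46 in RαTd/Td mice (adjusted p = 0.362), and the difference in response was 2.38 (SE 0.58, adjusted p = 0.0571). It was called without mouse 9 (2.64, adjusted p = 0.0372), with each mouse centred on its median gene (2.34, adjusted p = 0.0336), after quantile normalization (2.30, adjusted p = 0.0437) and with weights (2.10, adjusted p = 0.0397). Cd163, the haemoglobin scavenger receptor, was at 41.2, 109.2 and 52.2 in the Rα+/+ mice and 159.0, 251.1, 52.8 and 718.4 in the RαTd/Td mice given IL-4c; the genotypes overlap, and its value of 3.10 had a standard error of 1.19 (adjusted p = 0.225).

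Among alternative activation genes, 18 of 22 listed are on the panel and 16 were tested. Retnla was called and no other, and an unadjusted p of 0.05 or less was reached by 3 higher genes (Tgm2 and Cd163 among them) and 2 lower ones (Retnla and Irf4), against 6.97% and 8.54% over all tested genes. The median difference in response was 0.09, or -0.01 at limits, against -0.00 and -0.14 over all tested genes. With single mice left out it lay between -0.05 (without mouse 1) and 0.20 (without mouse 2). It was 0.24 with weights or after quantile normalization and 0.01 with a single floor.

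Chil3, the chitinase-like protein Ym1, was at the floor in all 4 mice given PBS and at 56993, 75307 and 91581 in Rα+/+ mice and 69620, 81626, 55754 and 43527 in RαTd/Td mice after IL-4c. The genotypes overlap, and the difference in response was -0.27, with an interval from -1.08 to 0.55 (adjusted p = 0.771 from limma), between -0.45 without mouse 5 and -0.10 without mouse 7 or 12 and -0.02 with weights. Quantile normalization reversed it to 0.66 (adjusted p = 0.00354). Il1rl1, the IL-33 receptor, rose in both genotypes from the floor, to 356.1, 404.0 and 581.2 in Rα+/+ mice and 324.7, 383.4, 230.7 and 106.7 in RαTd/Td mice, with a difference in response of -0.89 (adjusted p = 0.522) that was -0.51 without mouse 12 and -0.43 with weights. Tgm2, transglutaminase 2, rose in RαTd/Td mice (2.59, adjusted p = 0.000852), with 0.63 in Rα+/+ mice (adjusted p = 0.287) and a difference in response of 1.96 (adjusted p = 0.145), or 1.26 without mouse 3. Irf4, a transcription factor induced by STAT6 signalling, had -0.66 (adjusted p = 0.22), with -0.91 without mouse 1 (adjusted p = 0.0487) and -0.41 without mouse 2 (adjusted p = 0.547).

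The 8 tested genes of MHC class II presentation had differences in response below 0 in every case, or 7 of 8 when mouse 1, 2, 4, 9 or 10 was left out, and 0 were called by limma. The median was -0.47, or -0.30 without mouse 9, against -0.00 over all tested genes. Lower by an unadjusted p of 0.05 or less was 1 gene, H2-DMa, which loads peptides onto class II molecules (-0.74, adjusted p = 0.211), against 8.54% of all tested genes; without mouse 2 or 4 there was 0. H2-Aa, an MHC class II chain, was at 1724 and 1933 in Rα+/+ mice and 6135 and 8321 in RαTd/Td mice after PBS, and after IL-4c at 1081, 1807 and 1034 in Rα+/+ mice and 1928, 3218, 3490 and 4431 in RαTd/Td mice. RαTd/Td mice were higher in both treatments, by 1.97 after PBS (adjusted p = 0.0144, but 0.0972 without mouse 2 and 0.0982 without mouse 4) and by 1.31 after IL-4c (adjusted p = 0.0474, a call lost without any mouse but 6 or 9), and the difference in response was -0.66 with an interval from -1.73 to 0.41 (adjusted p = 0.536), or -0.40 without mouse 6 and -0.43 without mouse 9. The group's median genotype difference was 1.43 after PBS, with 5 of 8 called higher (8.09% over all tested genes), and 0.82 after IL-4c, with 2 called higher (1.57%). The 5 calls after PBS were 0 when mouse 2 or 4 was left out, 2 when it was mouse 1, and 3 when it was mouse 3, 5, 7, 10 or 11. They were 1 with no filter or no moderation, and 3 after quantile normalization or with a single floor. The 2 calls after IL-4c were 5 without mouse 9, 2 without mouse 6 and 0 without any of the other 9 mice; they were also 0 with no filter, no moderation, centring, quantile normalization or a single floor, and 1 with a pseudocount of 10. The response was called for 7 of the 8 in RαTd/Td mice (51.9% over all tested genes) and 2 in Rα+/+ mice (46.3%). The 7 became 2 without mouse 4, 4 without mouse 10 and 3 with no filter, and the 2 became 1 with a single floor and 0 with the stricter filters, and no gene of the group passed the test of the difference itself. Levels of class II genes are high in B cells too, which a sort for F4/80 is meant to leave out. Ms4a1 was above the floor in all 4 PBS-treated mice, at levels that overlap between the genotypes (104.5 and 226.5 against 192.5 and 242.3); its part was not tested.

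Interferon-stimulated genes had 5 tested members of 9 on the panel, all with values below 0 and 0 called by limma. Below 0 were 4 of the 5 with a single floor or without mouse 1, 3, 7 or 9, and 1 was called lower with a single floor, with weights or without mouse 11. The median was -0.66, with a genotype difference of 0.98 after PBS and 0.35 after IL-4c, against -0.00, 0.10 and 0.12 over all tested genes. With a single floor the median was -0.38, and the 0.35 was 0.16 without mouse 12, 0.08 with weights, 0.16 with centring, 0.18 after quantile normalization and 0.23 with a single floor. Mx1 and Irf1 were lower by an unadjusted p of 0.05 or less, as were 8.54% of all tested genes; without mouse 2, 3, 4, 6 or 10 there was 1 such gene, without mouse 12 there were 4, and the other settings gave 1 to 3. Irf1, an interferon-induced transcription factor, was at 228.3 and 180.0 in Rα+/+ mice and 386.8 and 413.1 in RαTd/Td mice after PBS, and overlapped between the genotypes after IL-4c, with a difference in response of -0.88 (adjusted p = 0.249 from limma). Mx1, a GTPase that blocks virus replication, was at 59.8 and 60.1 in PBS-treated RαTd/Td mice and at the floor in PBS-treated Rα+/+ mice, where mouse 1 could not have shown a value below 48.2 (-0.81, adjusted p = 0.0571); with a single floor of 56.3 its value was -0.09 (adjusted p = 0.0073).

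Chemokine and chemoattractant receptors had 10 tested members of 20 on the panel, with 1 called higher (Fpr1) and 1 called lower (Cxcr4), against 0.674% and 1.35% over all tested genes; both calls were lost without single mice. Their median difference in response was 0.42, or 0.30 at limits, against -0.00 and -0.14 over all tested genes, and 8 of the 10 values were above 0. C5ar1, the receptor for complement C5a, fell in Rα+/+ mice (-2.15, adjusted p = 0.00134 from limma), with -0.87 in RαTd/Td mice (adjusted p = 0.0681), and its difference in response was 1.28 (adjusted p = 0.249). Ccr1, a receptor for CCL3 and CCL5, fell in both genotypes. Its log2 change was -0.76 in Rα+/+ mice and -0.41 in RαTd/Td mice. The RαTd/Td fall was not called with centring (-0.15, adjusted p = 0.39), after quantile normalization (-0.27, adjusted p = 0.16) or without mouse 3 or 4 (-0.41 in each). The Rα+/+ fall was -0.46 with centring and -0.43 after quantile normalization, and still called. The difference in response was 0.35 (adjusted p = 0.372), or 0.21 without mouse 1 and 0.16 after quantile normalization.

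NF-kB targets and regulators had 13 tested members of 19 on the panel and 0 called by limma, with 1 (Il1a, lower) after quantile normalization, with a single floor or without mouse 10. An unadjusted p of 0.05 or less was reached by 2 higher genes (Nfkbia and Cd40) and 1 lower (Il1a), against 6.97% and 8.54% over all tested genes; there was 1 higher gene without mouse 3 or 6 or with weights, and there were 2 lower without mouse 1 or 4. The median difference in response was 0.10, or -0.15 at limits, against -0.00 and -0.14. It was 0.21 without mouse 2 and 0 with a single floor. Nfkbia fell in both genotypes, by 1.06 on the log2 scale in Rα+/+ mice and by 0.48 in RαTd/Td mice. The RαTd/Td fall was not called with centring (-0.22, adjusted p = 0.295 from limma), after quantile normalization (-0.34, adjusted p = 0.0752) or without mouse 3 or 4 (-0.50 and -0.45). Of the 3 tested dual-specificity phosphatases, Dusp2 was called. Dusp1, an immediate early MAP kinase phosphatase, fell in both genotypes, with a difference in response of 0.23 (adjusted p = 0.772 from limma) that was -0.09 without mouse 1. Dusp6, which acts on ERK, was at the floor in all 3 Rα+/+ mice given IL-4c and at 85.7, 34.1, 80.8 and 134.3 in RαTd/Td mice, with 1.09 (adjusted p = 0.448), or 0.38 with a single floor and 0.62 with weights.

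The 6 tested cell cycle genes rose in both genotypes, and 0 of the differences in response were called by limma, with 0 at an unadjusted p of 0.05 or less; without mouse 1 there was 1 called higher, Mcm5, a DNA replication factor. The median was -0.07, and since 4 of these genes had both PBS groups at the floor, it was -0.62 at limits. Top2a, the topoisomerase of dividing cells, was at 78.8 and 75.7 in Rα+/+ mice and 56.1 and 73.2 in RαTd/Td mice after PBS, and after IL-4c at 685.9, 652.7 and 656.6 in Rα+/+ mice and 817.9, 593.2, 540.0 and 533.6 in RαTd/Td mice. The genotypes overlap after IL-4c, and the difference in response was 0.15, with an interval from -0.44 to 0.73. Ccnb2, cyclin B2, rose from the floor to between 304.9 and 408.8 in all 7 mice given IL-4c, with a difference of -0.05 and an interval from -0.50 to 0.40. Both values changed sign without single mice, Top2a to -0.04 without mouse 3 and Ccnb2 to 0.04 without mouse 5 and 0.01 without mouse 10.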

How the data were processed

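Macrophages of 11 mice in 4 groups were measured on the Nanostring Myeloid Innate Immunity v2 panel. The deposited gene values are signal on a linear scale: the authors scaled counts to 4 housekeeping genes, and low values were replaced by 30. Control probes are whole counts. Levels of the positive probes, averaged geometrically in each mouse, differed between groups. After PBS they lay between 874.4 and 1021 in Rα+/+ mice and between 853.2 and 902.8 in RαTd/Td mice. After IL-4c they lay between 301.4 and 441.3 in Rα+/+ mice and between 507.1 and 623.5 in RαTd/Td mice. The IL-4c ranges overlap neither each other nor the PBS ranges. The part of this in the gene values was not tested. Dividing each mouse's values by its recovered factor gave whole counts, which served for depth and for the inferred floors and not for count tests. Depth ranged from 268857 to 574502. The 445 genes with a mean above 30 were tested as log2 values with 1 added, in limma 3.58.1 (R 4.3.3) with a coefficient per group and empirical Bayes moderation; p-values were adjusted by Benjamini-Hochberg over these genes for each contrast, and called means an adjusted p of 0.05 or less. Tables were handled in Python 3.11.15 with pandas 2.3.3. The fit was tested on simulated data that had no floor, so that test does not cover genes with a group at the floor.

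Named genes are Retnla, every called gene, the 10 uncalled genes with the smallest p on each side of 0, and tested members of 8 gene lists, from which those described were chosen after their values were seen, as were Anxa1, Rab20, Cysltr1, Ccl9 and Osm. Members and lists were chosen with earlier results of these data known. Alternatives were 3 filters, quantile normalization, centring on the median gene, a pseudocount of 10, a single floor, a trend with robust moderation, no moderation, a weight per mouse, leaving out each mouse, other thresholds and other sorting rules; a filter on genes with no group at the floor was chosen after seeing the data. No set test was run. A few genes that this rule takes in are not reported here. Of the tested genes, 338 matched the RefSeq promoter table, which is incomplete.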

Additional observations from a re-analysis of the deposited data

Results flagged for a closer look

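The 9 called genes passed the test of the difference between the genotypes in the effect of IL-4c. For Eif2b4 and Cxcr4 the call was lost with a single floor (0.04 and -0.60), and the levels of Eif2b4 after PBS cannot be told apart. For Fscn1 and Fpr1 the floor after IL-4c leaves only the genotype difference after PBS to be seen. The values were -5.03 for Retnla, -1.84 for Dusp2, 1.93 for Fscn1, -1.19 for Atf3, -1.27 for Cxcr4, 0.97 for Eif2b4, -1.22 for Jun, -0.94 for Batf and 0.81 for Fpr1 on the log2 scale.

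Within the 4 RαTd/Td mice given IL-4c, 9 of 57 gene and group combinations had 1 mouse whose gap to its nearest neighbour was large against the range of the group, by Dixon's 95% critical value. Chance gives about 1 in 20 where values are free to vary, but 7 of the 9 have the other 3 mice tied at the floor, where any value above it stands apart by construction, so the rate says nothing about these. In Fscn1 (32.3), Fpr1 (35.6) and Rictor (34.5) mouse 11 was above the floor and the other 3 mice were at it. In Id1 (33.3), Skil (31.4), Nfatc2 (33.3) and Fosb (44.8) it was mouse 9 that was above the floor and the other 3 at it. The lowest measurable value was 30 in mouse 9 and 32.3 in mouse 11. Above the floor, mouse 12 stood apart in Ier3, at 196.2, and mouse 11 in Rab20, at 127.2.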

How the results depend on the processing

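Of 1318 values of the 63 named genes under an alternative, 1227 kept direction and side of the threshold, 38 lost a call, 36 gained one and 17 changed sign. The count of 9 was 4 with a mean above 100 (1 higher, 3 lower; 3 put down to PBS, 0 to IL-4c and 1 to both; of the genes by unadjusted p, 26 to PBS and 7 to IL-4c). It was 2 above 30 in every mouse (0 higher, 2 lower; 2 to PBS, 0 to IL-4c, 0 to both; 8 to IL-4c by unadjusted p) and 3 with no group at the floor (0 higher, 3 lower; 3 to PBS, 0 to IL-4c, 0 to both; 8 to IL-4c by unadjusted p), where fewer genes were tested. Quantile normalization gave 18 (7 higher, 11 lower; 6 to IL-4c; 29 to both by unadjusted p) and 23 calls after PBS. Centring gave 22 to both by unadjusted p and 26 calls after PBS. It moved the median genotype difference of all genes from 0.10 to -0.05 after PBS and from 0.12 to -0.07 after IL-4c. A single floor gave 16 (14 lower; 12 to PBS, 2 to IL-4c), a trend with robust moderation 1 to both, no moderation 2 to IL-4c and weights 5 higher and 10 to PBS. An unadjusted p of 0.05 or less gave 69 and an adjusted p of 0.1 or less 19. A cut at 3/4 put 8 of the genes by unadjusted p down to IL-4c and 26 to both, and sorting by calls put 26 to PBS, 6 to IL-4c and 1 to both, with 1 called gene to both. Except where fewer genes or mice were used, the cause was not tested.

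Leaving out each mouse gave 3 to 34 calls (1 to 13 higher, 2 to 21 lower), with 1 to 31 put down to PBS, 1 to 2 to IL-4c and 1 to 4 to both. By unadjusted p, 32 to 77 were put down to PBS, 6 to 18 to IL-4c and 5 to 21 to both. Calls were 3 to 73 for the genotypes after PBS and 5 to 27 after IL-4c. Where a group of 2 was left with a lone mouse, it was assumed to vary like the other groups.

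Changes of sign were Chil3 0.66 and Batf3 -0.19 under quantile normalization, Chil4 -0.21 with a single floor and Rnase2a 0.35 with weights. Leaving out a mouse gave Chil4 -0.21 to 0.59, Rnase2a -0.46 to 0.21, Top2a -0.045 to 0.33, Ccnb2 -0.15 to 0.036, Myc -0.042 to 0.34, Batf3 -0.054 to 0.18, Nr4a2 -0.55 to 0.42 and Dusp1 -0.089 to 0.54. None of these was called in the fit to all mice. Of the called genes, Dusp2, Cxcr4, Eif2b4, Batf and Fpr1 have no value with a mean above 100, Retnla, Dusp2, Fscn1, Cxcr4, Eif2b4 and Fpr1 have none above 30 in every mouse, and the same genes but Cxcr4 have none with no group at the floor. No paired analysis was possible because each mouse has its own number. With 2 mice in each PBS group and floors from 30 to 56.3, levels under these floors and small differences after PBS could not be measured.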

Other observations

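The 4 RαTd/Td mice given IL-4c were spread unevenly. Mouse 12 had the highest of the 4 values in 177 of the 445 genes and mouse 9 the lowest in 169. Mrc1, the mannose receptor, was at 273.3, 444.4, 253.3 and 989.2 in mice 9 to 12, and Ccl9, a chemokine, at 3452, 4363, 4845 and 8989, both highest in mouse 12. Klf4 ran the other way, at 2758, 2609, 1829 and 1153, and so did Osm, the cytokine oncostatin M, at 122.8, 84.7, 73.3 and 47.0. Their differences in response were 1.44, 1.31, -0.93 and -1.19, and 0 of them were called by limma.

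The sign of the responses gives another view of the 69 genes with an unadjusted p of 0.05 or less. In 24 (34.8%) the response had the same direction in both genotypes and was larger in RαTd/Td mice, in 18 (26.1%) it was smaller there, and in 27 (39.1%) the directions were opposite or a response was 0. Over all 445 genes these shares were 37.5%, 38.0% and 24.5%. Genes picked for a large difference between the responses have opposite directions more often by that choice alone. Adam8, a membrane metalloprotease, rose in both genotypes. It went from 509.7 and 734.2 to 1226, 965.7 and 1107 in Rα+/+ mice, and from 384.9 and 330.5 to 1069, 1071, 1277 and 1439 in RαTd/Td mice. The Rα+/+ rise (0.84, adjusted p = 0.00606 from limma) was not called without mouse 1 (0.58). The difference in response was 0.91 and not called (adjusted p = 0.129), but was called without mouse 1 (1.18). Klf10, a TGF-β-induced zinc finger factor, fell in RαTd/Td mice (-0.56, adjusted p = 0.00409), from 456.0 and 540.8 to between 319.0 and 372.9. That fall was not called without mouse 4 (-0.44), with centring (-0.30, adjusted p = 0.133) or after quantile normalization (-0.28, adjusted p = 0.16). Klf10 had 0.20 in Rα+/+ mice (adjusted p = 0.247) and a difference in response of -0.76 (adjusted p = 0.0569). This difference was called with a single floor (adjusted p = 0.0343) and without mouse 11 (-0.80, adjusted p = 0.0448). Fn1, fibronectin, fell in both genotypes, to between 18494 and 20704 in Rα+/+ mice and between 24062 and 34472 in RαTd/Td mice, with a difference in response of 0.45 (adjusted p = 0.44) that was 0.26 without mouse 1 and 0.63 without mouse 2.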
